A study of Mus musculus with 24 samples.

Results

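The Mir30 loci and the cluster of Mir322, Mir351 and Mir503 are 9 microRNA genes, taken by symbol from the 55335 genes of a mouse small RNA count table that holds 1174 microRNA genes. The Mir30 loci are Mir30a, Mir30b, Mir30c-1, Mir30c-2, Mir30d and Mir30e, and the X-linked cluster holds Mir322, Mir351 and Mir503. They were selected on their counts in these same libraries, so their levels by cell type are given as a description. The study compared mouse embryonic stem cells (mESC) with neural progenitor cells (NPC) made from them, to relate the CAG repeat of the Huntington's disease gene, Htt, to RNA processing. Each cell type had 12 libraries, 2 for each of 6 genotypes: wild type (WT), Htt knockout (KO), and 4 lines with a knocked-in repeat on 1 allele, Q20, Q50, Q92 and Q111, after the number of CAG units. The titles give 92 repeats for the line that the growth protocol and the count table call 89. Each knock-in genotype was a single line, so repeat number and line cannot be told apart. The mESC were grown with leukemia inhibitory factor on a layer of mouse fibroblasts, and the NPC with FGF and EGF on laminin. The 2 libraries of a group are described as biological samples, but no separate derivation is recorded, so p-values measure the spread between these libraries, which may be partly technical.

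A microRNA gene is transcribed as a hairpin, which Drosha and then Dicer cut to mature strands of which 1 is loaded on an Argonaute protein. The strand finds its target mRNAs mainly through the seed, bases 2 to 8 from its 5′ end, and lowers their stability and translation. The miR-30 family is broadly expressed and is known to increase as many cell types differentiate. The miR-322 and miR-503 strands are known to act on cyclins and other regulators of the cell cycle, and miR-351 is a relative of miR-125, a microRNA of neural and blood cells.

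The mature strands below, from 7 of the 9 genes and from seed relatives, are shown so that their seeds, in capitals, can be compared. They are RefSeq sequences on GRCm38.p6, read 5′ to 3′. Mature entries were matched for 7 of the 9 genes and hairpin entries for 6, and Mir30b and Mir30d were not matched to either.
miR-30a-5p (Mir30a): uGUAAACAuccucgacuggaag
miR-30c-5p (Mir30c-1 and Mir30c-2): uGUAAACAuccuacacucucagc
miR-30e-5p (Mir30e): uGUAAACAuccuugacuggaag
miR-322-5p (Mir322): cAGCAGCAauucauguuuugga
miR-16-5p (Mir16-1, a seed relative): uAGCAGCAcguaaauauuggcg
miR-503-5p (Mir503): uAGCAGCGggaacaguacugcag
miR-351-5p (Mir351): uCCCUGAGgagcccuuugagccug
miR-125b-5p (Mir125b-1, a seed relative): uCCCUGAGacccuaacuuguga

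The seed GUAAACA was shared by 4 of the 1679 mature names in the RefSeq table: miR-30a-5p, miR-30c-5p, miR-30e-5p and miR-384-5p. Mir30b and Mir30d are missing from these names because no mature entry was matched to them, so their seeds were not compared. The miR-322-5p seed AGCAGCA was held by 10 mature names, among them miR-15 and miR-16, while the miR-503-5p seed AGCAGCG was found in miR-503-5p alone. The miR-351-5p seed CCCUGAG was held by 5 names, among them miR-125a-5p and miR-125b-5p. Of the 3 clustered genes, then, Mir322 and Mir503 had similar seeds, and Mir351 a different one.

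Some of the strands were close enough to bear on where a read is counted. From miR-30a-5p to miR-30e-5p the only substitution was C13U, with positions counted from 1 at the 5′ end, and from miR-30a-3p to miR-30e-3p it was G18A. The mature miR-30c-5p was identical at both Mir30c loci. Their hairpins are shown because they share more than the mature strand, with the mature arms in capitals.
Mir30c-1 hairpin: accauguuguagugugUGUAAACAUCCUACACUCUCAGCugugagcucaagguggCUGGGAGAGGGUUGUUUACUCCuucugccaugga
Mir30c-2 hairpin: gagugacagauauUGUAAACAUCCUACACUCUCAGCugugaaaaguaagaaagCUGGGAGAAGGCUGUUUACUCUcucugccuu
The longest stretch common to both ran for 28 bases, uguaaacauccuacacucucagcuguga. The 3p arms differed by G9A, U12C and C22U from Mir30c-1 to Mir30c-2. A read that lies within the shared stretch matches both loci equally, and how such reads were handled is not given in the sources used here. The counts of Mir30c-1 are therefore uncertain as to locus, and for every member the count does not separate the 5p from the 3p strand.

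The 9 genes lie in 4 places on GRCm38. Mir30a (ENSMUSG00000065405) is on chr1:23272269-23272339, plus strand, and Mir30c-2 (ENSMUSG00000065567) lies 19361 bases downstream at chr1:23291701-23291784. Mir30c-1 (ENSMUSG00000065490) at chr4:120769534-120769622 and Mir30e (ENSMUSG00000065409) at chr4:120772606-120772697 are on the minus strand, 2983 bases apart, within Nfyc but outside its exons. Nfyc encodes a subunit of the transcription factor NF-Y. Mir30b (ENSMUSG00000065476) at chr15:68337415-68337510 and Mir30d (ENSMUSG00000065437) at chr15:68341208-68341289 are on the minus strand with 3697 bases between them. On the X chromosome, also on the minus strand, Mir351 (ENSMUSG00000065503) at chrX:53053255-53053353, Mir503 (ENSMUSG00000076122) at chrX:53053984-53054054 and Mir322 (ENSMUSG00000065418) at chrX:53054255-53054349 are separated by 630 and 200 bases and touch no exon of another gene.

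Small RNA reads of these genes were few. The 9 genes together held 550 of 25027120 counts, or 0.0022%. Mir351 had 243 counts and Mir30a 224, which placed them at ranks 23 and 26 among the 1174 microRNA genes by count. Mir30c-1 had 59, Mir322 11, Mir30b 7, Mir30e 4 and Mir503 2, and Mir30c-2 and Mir30d were at 0 in all 24 libraries. So Mir30a gave 76.19% of the 294 Mir30 counts and Mir30c-1 a further 20.07%, and Mir351 gave 94.92% of the 256 counts of the cluster. These are shares of reads per gene, not of molecules.

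**Figure D1:**
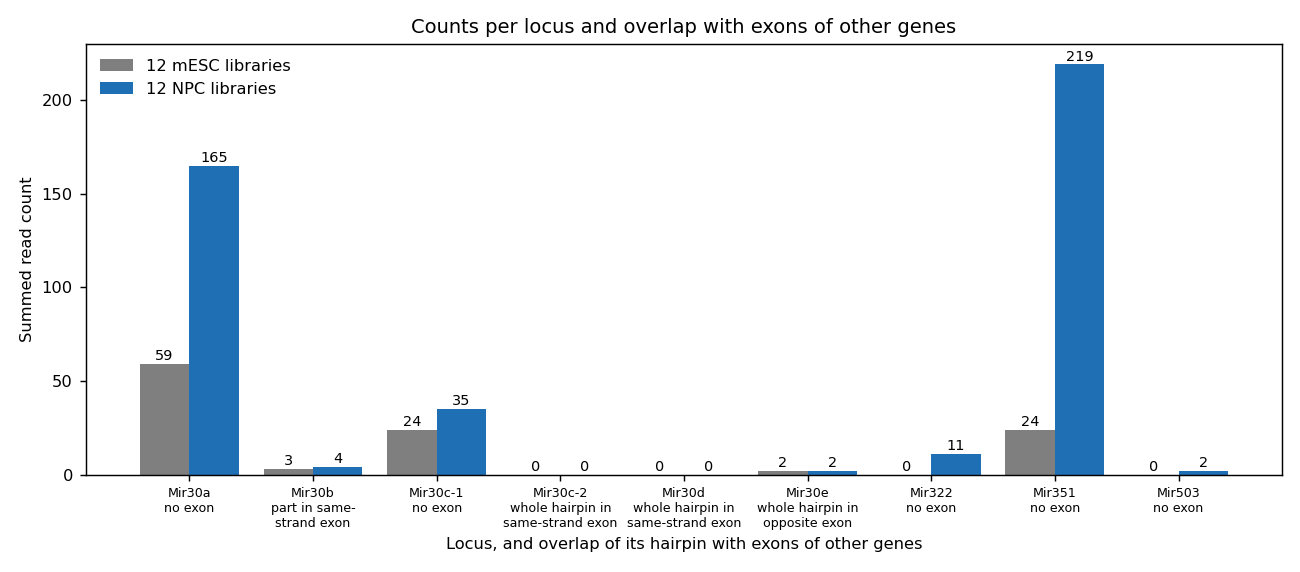
Summed read counts (vertical axis) of the 9 genes in the 12 mESC libraries (grey) and the 12 NPC libraries (blue), with the overlap between each hairpin and exons of other annotated genes written under its name. Mir30c-2 and Mir30d, whose hairpins lie wholly inside an exon on the same strand, are at 0, while Mir351 reaches 219 counts in NPC. The NPC libraries were shallower, so the heights do not compare levels between the cell types.

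The zeros went with the annotation. The Mir30c-2 hairpin lies wholly inside an exon of the long noncoding RNA Gm27028, and that of Mir30d inside an exon of Gm20732, both on the same strand. Those hosts held 1 count each, and Gm37296, which also reaches into Mir30d, held 1. Over all microRNA genes, 0 of the 183 whose hairpin lay wholly within a same-strand exon of another gene had a count, against 307 of 818 (37.5%) with no exon over them. Where only part of the hairpin was covered on the same strand, 38 of 86 (44.2%) had a count, and Mir30b, with 16 of its 96 bases under an exon of Gm26621, is of this kind. Where the whole hairpin was covered on the opposite strand alone, 30 of 63 (47.6%) had a count, and Mir30e, covered by Mir30f, is of this kind. The 2 zeros are thus the same value that every gene of that annotation class has, and they give no level for Mir30c-2 or Mir30d.

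**Figure D2:**
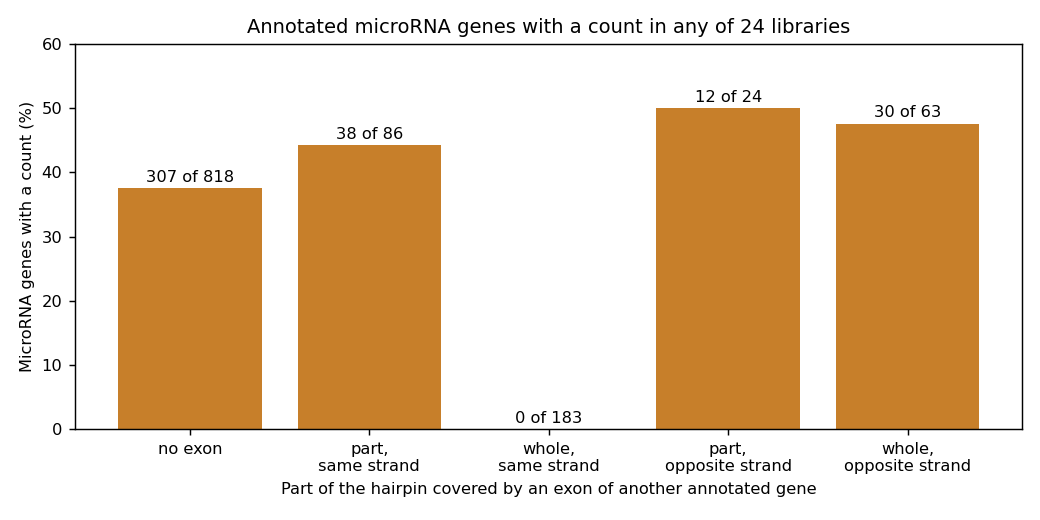
Share of annotated microRNA genes with at least 1 count in the 24 libraries (vertical axis, percent), by how an exon of another gene covers the hairpin (horizontal axis), with the numbers of genes over each bar. The bar for hairpins wholly inside a same-strand exon is at 0 of 183, and the other 4 classes lie between 37.5% and 50.0%.

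Levels are given below as CPM, counts divided by the library total and multiplied by 1e6, with the total scaled by TMM, a method that evens out differences in RNA composition. Library totals ran from 642384 to 2360434 counts in mESC and from 342022 to 682113 in NPC, so a limit of 3 counts, the most that a count of 0 allows, stood at 1.36 to 4.23 CPM in mESC and 4.49 to 8.44 CPM in NPC. These limits cover counting error only. Htt, whose mRNA these libraries hold only as fragments, had 3 and 2 counts in KO and 8 and 8 in WT mESC, and 1 and 1 in KO against 9 and 2 in WT NPC. It was also at 0 in 1 Q50 mESC library and 1 Q111 NPC library, so these counts do not check the knockout. The labelled cell types were checked with marker lists, and 11 stem cell microRNAs of the Mir290 and Mir302 clusters summed to 1210 to 3640 CPM in mESC and to 0 to 2.29 CPM in 10 of the NPC libraries. The exception was Q20, whose NPC libraries had 345 and 365 CPM, so results on the NPC are also given without Q20. A sum of 10 neural progenitor mRNAs was at 15.4 to 37.1 CPM in mESC, 139 and 156 CPM in Q20 NPC and 199 to 380 CPM in the other NPC libraries. The 10 fibroblast microRNAs summed to 0 to 5.84 CPM in mESC and 0 to 4.68 CPM in NPC, but 5 of them had no count in any library, 4 of these lying wholly in a same-strand exon. The 10 fibroblast mRNAs summed to 13.6 to 29.2 CPM in mESC and 2.60 to 26.0 CPM in NPC. Fn1, which encodes fibronectin, held 295 of the mESC counts and was the only tested gene of that list. It had enough counts for a test through mESC libraries alone. Its log2 difference, NPC minus mESC, was -2.29 ± 0.32 (SE), with an edgeR adjusted p of 5.65e-07. The rest of the list went both ways. Sparc had 2.89 CPM in mESC and 7.07 in NPC from the summed counts. Pdgfra, Col1a1, Col1a2 and Col3a1 had 0 counts in mESC and 22, 3, 2 and 7 in NPC. Lox, Pdgfrb and Thy1 had 3, 2 and 1 counts in mESC and 0 in NPC, and Postn had 0 in both. The part of feeder cells in the members' levels was not tested. In such bulk samples, fewer cells of a type and less RNA per cell cannot be told apart.

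NPC had more reads of both main members than mESC. Mir351 ran from 0 CPM (median 0.803) to 8.42 CPM in mESC, and from 10.8 CPM (median 29.6) to 91.3 CPM in NPC. Every NPC library lay above every mESC library, a separation seen in 7.08% of the 904 genes tested. The means were 1.54 ± 2.33 CPM (SD, n = 12) and 36.7 ± 25.5 CPM (SD, n = 12). From the summed counts the ratio of NPC to mESC was 24.8, and it was 42.3 without mESC Q111 replicate 2, which alone held 11 of the 24 mESC counts. In the fit across all genes the log2 difference, NPC minus mESC, was 4.46 ± 0.46 (SE), and 4.41 ± 0.50 without Q20.

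Mir30a ran from 1.97 CPM (median 2.89) to 7.05 CPM in mESC, and from 6.07 CPM (median 25.9) to 113 CPM in NPC. The ranges touched: 9 of the 12 NPC libraries lay above the highest mESC library, and the others were both Q20 libraries and 1 of Q92. The means were 3.77 ± 1.81 CPM (SD, n = 12) in mESC and 30.8 ± 29.7 CPM (SD, n = 12) in NPC. The log2 difference was 2.79 ± 0.32 (SE), and 2.82 ± 0.34 without Q20. By line, the ratio of mean Mir30a CPM in NPC to that in mESC, from 7 to 16 mESC reads a line, was 18.1 in Q50, 12.6 in KO, 7.85 in WT, 5.47 in Q111, 2.73 in Q20 and 2.04 in Q92. Both NPC libraries exceeded both mESC libraries in 5 of the 6 genotypes for Mir30a, the exception being Q92, and in all 6 for Mir351.

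Mir30a and Mir351 were the only members of the 9 with enough counts to be tested across all genes, and both were called higher in NPC at an adjusted p under 0.05. Of the 904 genes tested, 33.1% were called higher and 25.9% lower. The members were chosen with these levels known. Mir30a and Mir351 had enough counts for this test through NPC libraries alone. A member with few reads in both cell types could not be tested. So nothing is read from the number of members called or from the direction of the calls. The median log2 difference of all genes tested was 0.05. Scaling by library totals alone moved that median by 0.33 to 0.38, and gave 3.03 for Mir30a and 4.73 for Mir351.

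The scarcer members were not tested. Mir30c-1 was between 0 (median 1.30) and 5.36 CPM in mESC and between 0 (median 6.73) and 11.3 CPM in NPC. Its groups overlapped, with 7 of 12 NPC libraries above the highest mESC library. The means were 1.56 ± 1.39 CPM (SD, n = 12) and 6.11 ± 3.85 CPM (SD, n = 12), from 24 and 35 counts, with 0 to 5 reads in each NPC library. Mir322 had no count in mESC and 11 counts in 8 of the NPC libraries, at most 3 in any. Against a limit of 3 counts over the 12 mESC libraries together, the summed NPC value of Mir322 was 9.97-fold higher. This allows for counting error in mESC only and not for that of the 11 NPC counts, so it is no lower bound. Those Mir322 reads were 3 in Q50, 3 in KO, 2 each in WT and Q111, 1 in Q20 and 0 in Q92. Mir503 had 2 counts in all, in Q50 and Q92 NPC, Mir30b had 3 in mESC and 4 in NPC, and Mir30e had 2 in each, so no direction is given for these.

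**Figure D3:**
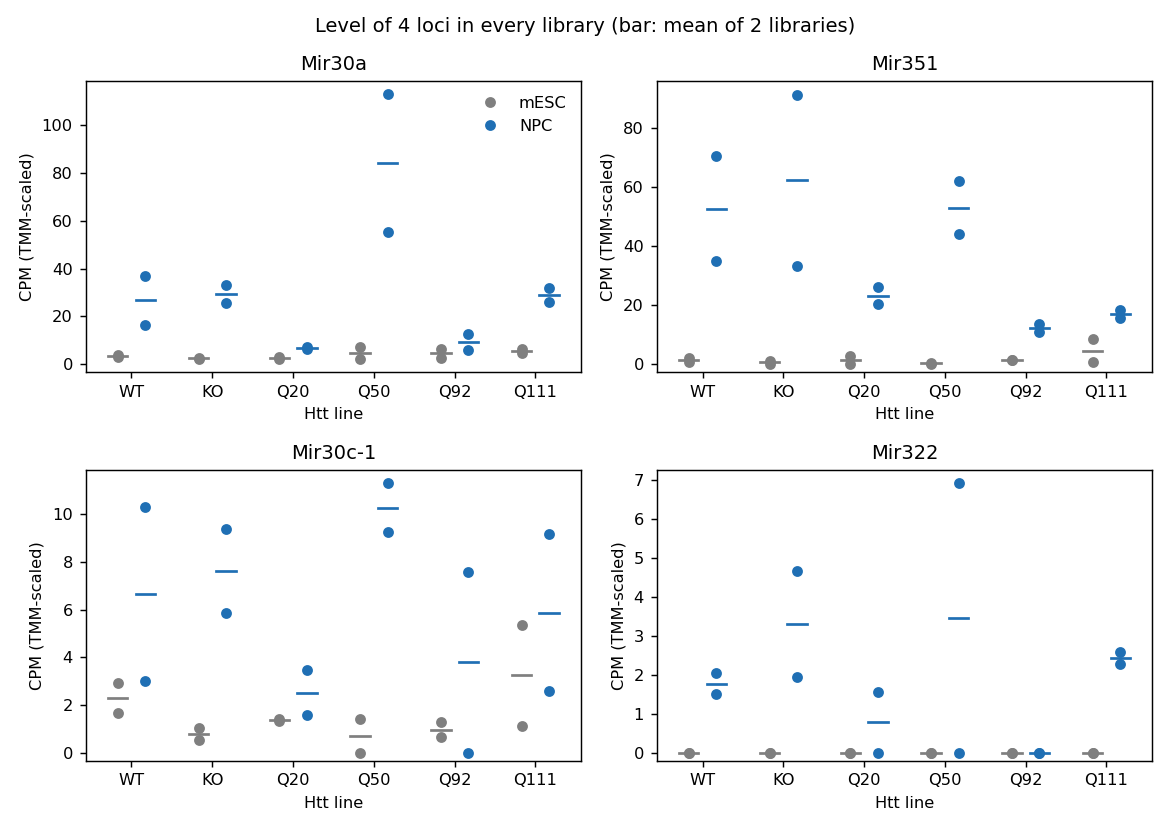
CPM of Mir30a, Mir30c-1, Mir322 and Mir351 in each of the 24 libraries (points), by cell type and genotype. All 12 NPC values of Mir351 lie above the highest mESC value of 8.42 CPM, and the highest Mir30a values, 55.5 and 113 CPM, are those of Q50 NPC.

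Among the NPC lines, Mir30a was highest in Q50 and lowest in Q20 and Q92. The values of replicates 1 and 2 were 16.4 and 37.0 CPM in WT, 33.2 and 25.7 in KO, 6.93 and 6.27 in Q20, and 55.5 and 113 in Q50. For Q92 they were 6.07 and 12.4 CPM, and for Q111 26.0 and 32.0 CPM. These rest on between 4 and 40 reads per library. With TMM, Q50 lay above all other lines and the ranges of KO, Q111 and WT overlapped. Q92 and Q20 lay below those and overlapped each other. By library totals alone Q50 stayed highest, at 50.8 and 84.8 CPM. On that scale Q92, at 9.11 and 18.4 CPM, overlapped WT, at 16.1 and 40.8 CPM, and Q20, at 8.32 and 7.38 CPM, lay below Q92. Against WT, the log2 differences were 1.62 ± 0.45 (SE) in Q50, -1.74 ± 0.61 in Q20 and -1.17 ± 0.57 in Q92. KO and Q111 differed from WT by less than their error, by 0.29 ± 0.49 and 0.29 ± 0.51.

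Mir351 had another order among the same lines. Its values were 70.3 and 34.9 CPM in WT, 33.2 and 91.3 in KO, 26.0 and 20.4 in Q20, 43.9 and 61.9 in Q50. The other lines with long repeats gave 13.7 and 10.8 CPM (Q92) and 15.6 and 18.3 CPM (Q111). With TMM, KO, Q50 and WT were highest and overlapped, and below them Q20, Q111 and Q92 followed without overlap between neighbours. The step from Q111 to Q92 rests on 6 to 9 reads per library. By library totals alone these lines overlapped, at 17.5 and 17.6 CPM in Q111 and 20.5 and 16.1 CPM in Q92. Relative to WT, the log2 differences were -1.80 ± 0.49 (SE) in Q92, -1.52 ± 0.51 in Q111 and -1.01 ± 0.45 in Q20. They were -0.07 ± 0.43 in Q50 and 0.26 ± 0.42 in KO.

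In the test that the 6 NPC genotypes share a mean, edgeR's quasi-likelihood F test gave an adjusted p of 0.00107 for Mir30a (F = 10.5) and 0.0123 for Mir351 (F = 5.96). Of the 441 genes tested, 37.2% were called, so a difference among lines was common in these libraries. Without Q20 the edgeR adjusted p was 0.0354 for Mir30a and 0.0271 for Mir351. Without NPC Q92 replicate 2 the call of Mir351 was lost, at an edgeR adjusted p of 0.0577.

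**Figure D4:**
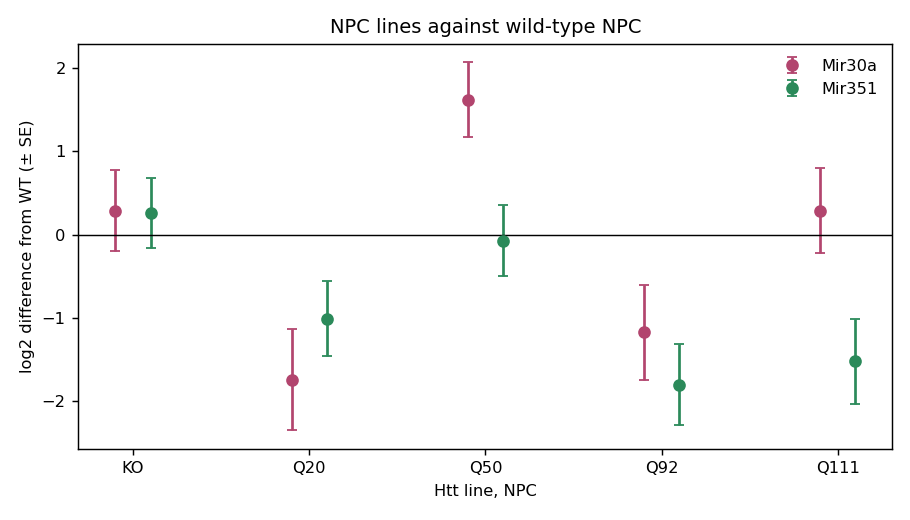
log2 difference of each NPC line from WT NPC for Mir30a and Mir351 (points), with bars of ± 1 SE from the edgeR fit of 12 libraries. Q50 stands at 1.62 for Mir30a and at -0.07 for Mir351, and Q111 at 0.29 and -1.52.

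Other microRNA values differed among the lines in a similar order. The sum of 11 neural microRNAs, of whose NPC counts Mir181a-1 held 1138 and Mir181a-2 267, was 534 and 850 CPM in Q50 NPC, 97.1 and 95.6 in Q20 and 156 and 138 in Q92. In WT it was 173 and 341 CPM, in KO 287 and 435, and in Q111 291 and 274. It was thus highest in the line with the most Mir30a and lowest in the lines with the least. Mir9-3 did not share this order, with 15 and 17 counts in Q20, 8 and 13 in Q50, and an edgeR adjusted p of 0.458 for the lines. The neural progenitor mRNA sum followed this for Q20 only, since Q92 had 323 and 334 CPM beside 361 and 377 in Q50. The part of these differences in the Mir30a result was not tested.

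The balance between both genes also varied with the line. Of the reads of Mir351 and Mir30a together, Mir351 took 68.8% in WT NPC (exact Clopper-Pearson 95% interval 58.4 to 78.0), 66.7% in KO (55.5 to 76.6) and 77.8% in Q20 (60.8 to 89.9). It took 39.0% in Q50 (29.7 to 49.1), 36.8% in Q111 (21.8 to 54.0) and 57.1% in Q92 (37.2 to 75.5). The Q50 and Q111 intervals lay below the WT and KO intervals, and the Q92 interval overlapped those of all other lines. Between the WT libraries the share still ran from 48.6% to 81.0%, and between the KO libraries from 50.0% to 78.0%. The intervals pool the reads of a line's libraries and cover counting error only, so they do not test a difference between lines. The hairpins, at 99 and 71 bases, differ in length, so these shares compare lines and not the genes' levels.

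**Figure D5:**
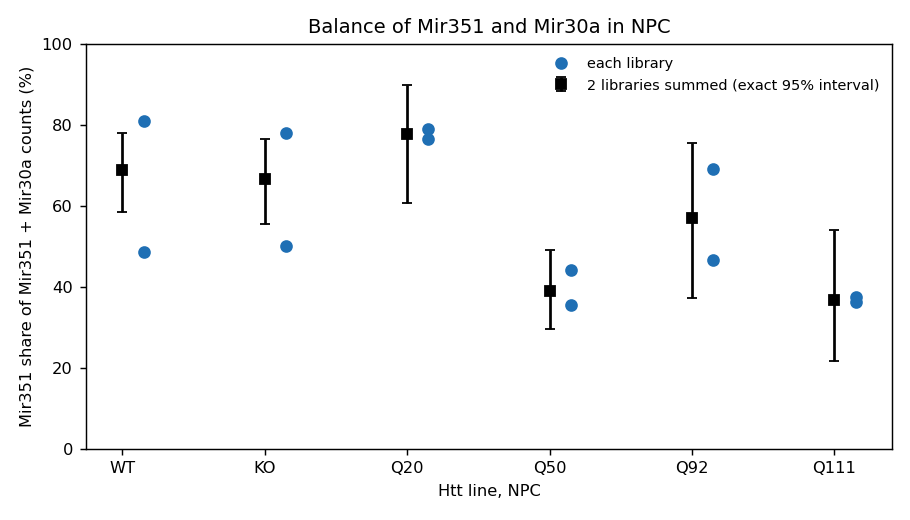
Share of Mir351 in the summed Mir351 and Mir30a reads (vertical axis, percent) by NPC line. Squares give the summed libraries of a line, with exact 95% binomial intervals that cover counting error only, and circles give each library. The squares of Q50 and Q111 lie at 39.0% and 36.8%, below WT at 68.8% and KO at 66.7%.

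No member was called between KO and WT. KO minus WT in NPC gave a log2 difference of 0.29 ± 0.49 (SE) for Mir30a and 0.26 ± 0.42 for Mir351, with an edgeR adjusted p of 0.887 for each. Over the 441 genes of this contrast, 1.36% were called, 0.227% as higher and 1.13% as lower in KO, and neither member had an unadjusted p under 0.05. The sign of both differences turned when 1 library was left out, to -0.25 for Mir30a without WT replicate 1 and to -0.52 for Mir351 without KO replicate 2 or -0.14 without WT replicate 2. These groups held 11 to 47 reads of each member per library, and both differences were smaller than their standard error.

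No slope with repeat number was called for either member. In the 8 NPC libraries with a knocked-in repeat, the log2 slope per 10 CAG units was -0.01 ± 0.14 (SE) for Mir30a and -0.11 ± 0.07 for Mir351, with edgeR adjusted p-values of 0.989 and 0.449. In this comparison 6.45% of 403 genes were called, 2.73% with a rising and 3.72% with a falling slope. Without the Q20 libraries the slopes were -0.29 ± 0.12 and -0.27 ± 0.08, at edgeR adjusted p-values of 0.208 and 0.0919. The Mir30a values did not follow a straight order: Q20 and Q92 were low, and Q50, whose repeat lies between theirs, was high.

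In mESC only Mir30a had enough reads for a test, and no difference among its lines was called. Counts of replicates 1 and 2 were 7 and 3 in WT, 5 and 2 in KO, 4 and 3 in Q20, and 5 and 5 in Q50. Those of Q92 were 4 and 5, and those of Q111 were 8 and 8. In CPM, WT (2.92 to 3.88) lay above Q20 (1.97 to 2.87), and the other neighbours in the order Q111, Q50, Q92, WT, Q20 and KO overlapped. The edgeR adjusted p was 1 for the 6 lines, where 0.0566% of 1766 genes were called, and 1 for KO against WT (log2 -0.44 ± 0.83, SE), where 0% were called, also by DESeq2, and 18 genes had an unadjusted p under 0.05. It was also 1 for the slope (0.08 ± 0.08 per 10 repeats), where 0% of 1487 genes were called also by DESeq2, and 48 had an unadjusted p under 0.05. Mir351 had 24 mESC reads in 9 libraries, 11 of them in Q111 replicate 2 and at most 4 in any other.

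The relatives of each seed were then set beside the members. Of the miR-15/16 group, Mir16-1 had 82 counts in mESC and 114 in NPC, a log2 difference, NPC minus mESC, of 1.82 ± 0.38 (SE) with an edgeR adjusted p of 0.00014. Its neighbour Mir15a, with 114 and 60 counts, gave 0.56 ± 0.36 and an edgeR adjusted p of 0.178. Mir15b had 16 and 14 counts, Mir16-2 15 and 12, Mir497 15 and 1, and Mir195a 0. So most reads of the 8 listed genes of this group were counted at Mir15a and Mir16-1 in both cell types, with 11 NPC reads at Mir322. The mature name miR-16-5p covers both Mir16-1 and Mir16-2, and the Mir16-1 hairpin lies partly in a same-strand exon. These counts therefore do not rank the loci of this group. In the group of the CCCUGAG seed, Mir351 had 243 counts, Mir125b-2 had 2 in NPC, and Mir125a and Mir125b-1 were at 0. The Mir125b-1 hairpin lies wholly in a same-strand exon of another gene, and those of Mir125a and Mir125b-2 in part, so these counts do not rank Mir351 against its relatives.

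Of the 5 genes next to the cluster on the X chromosome, none had enough reads for a test. Mir450-1 had 19 counts in mESC and 1 in NPC, Mir450-2 had 3 and 1, Mir450b 4 and 0, and Mir542 1 and 0. The noncoding transcript C430049B03Rik had 0 and 5. The neighbouring microRNAs thus had more reads in the deeper mESC libraries, and Mir351 and Mir322 more in NPC.

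Of 12 genes of microRNA processing, 2 could be tested and neither was called between NPC and mESC, where 59% of all genes tested were called in either direction, at log2 differences of 0.14 ± 0.30 (SE) for Ago2 and -0.65 ± 0.45 for Ago1, both Argonaute proteins. Of those not tested, Drosha had 6.03 CPM in mESC and 2.89 in NPC from the summed counts, Dicer1 6.97 and 6.43, and Lin28b 3.49 and 0.643. Of 9 cell cycle mRNAs known as targets of the AGCAGCA seed group, 2 could be tested. Both were called higher in NPC, where 33.1% of all genes tested were. Both had enough counts for a test through NPC libraries alone, so nothing is read from their number or the direction of these calls. The other 7 were not tested and went both ways: Ccne1 (cyclin E1) had 2.84 CPM in mESC and 0.482 in NPC from the summed counts, Wee1 2.95 and 2.41, and Cdc25a 2.19 and 3.21. Ccnd2, which encodes cyclin D2, had 15 counts in mESC and 225 in NPC, a log2 difference of 5.20 ± 0.37 with an edgeR adjusted p of 1.55e-12. Ccnd1, which encodes cyclin D1, had 53 and 178 counts, a log2 difference of 3.06 ± 0.37 with an edgeR adjusted p of 3.28e-08. These are fragments of mRNA in small RNA libraries.

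The genes most like the summed Mir30 reads over the 24 libraries, by Pearson's r of log2(CPM + 1) among 902 genes, were Scarna17, a small Cajal body RNA (r = 0.912), Mir9-1, a neural microRNA (0.899), and Gm3764, a long noncoding RNA (0.888). For the summed cluster they were Map2, a microtubule protein of neurons (0.932), Mir181a-1 (0.931) and Olig1, a factor of glial progenitors (0.927). The 24 points share the step between the cell types and its difference in depth. With each cell type's mean subtracted, the closest to Mir30 were Mir181a-1 (0.848), Gm28438 (0.831) and mt-Nd2 (0.81), and to the cluster mt-Co1 (0.585), Rn7sk (0.547) and Fgfr1 (0.546). Mir30a and Mir351 themselves correlated by 0.821 over all libraries, 0.256 within mESC and 0.514 within NPC. The value was thus lower within each cell type than over both.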

How the data were processed

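Small RNA of 24 libraries was read as single 50-base reads, per the labels' protocols. The deposited file holds raw read counts per Ensembl gene. STAR, HTSeq, CASAVA 1.8 and GRCm38.p6 are named in the submitters' processing notes, and adapter trimming, strand setting and the handling of reads that match several loci are not given in the sources used here. Gene identifiers were matched to GENCODE mouse release M21 (55154 of 55335). For the Q92 samples the 4 columns labelled Q89 were used, as the growth protocol gives that number.

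Tests used edgeR 4.0.16 in R 4.3.3 (glmQLFit, glmQLFTest, TMM) on genes passing filterByExpr (min.count 10, min.total.count 15), with Benjamini-Hochberg adjustment over all genes tested and a threshold of 0.05. NPC against mESC was fitted with genotype as a covariate over 24 libraries. Lines and KO against WT used the 12 libraries of a cell type, and the slope the 8 knock-in libraries. Each fit was first tested on simulated data. Alternatives were other scalings, no filter, DESeq2 1.42.0, a replicate block, other sets of libraries and leaving out each library. The leave-one-library-out ratios of summed counts were added after seeing the data.

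All 9 members are named, as are up to 4 genes of each list by total count and the 3 genes most like each summed profile. Other genes named were chosen after their values were seen. The members and the lists were chosen with earlier results of these data known. No 2 libraries of a group agreed within sampling noise.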

Additional observations from a re-analysis of the deposited data

How the results depend on the processing

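The number of members called in the 7 comparisons changed in 2 cases. Without a filter on low counts, 4 members rather than 2 were called between NPC and mESC, Mir322 and Mir30c-1 being added. Among the NPC lines, leaving out single libraries gave 1 to 2 called members. The Mir30a difference of Q50 from WT in NPC, 1.62 on the log2 scale, was 1.31 ± 0.48 (SE) without a filter. None was called for KO or the slope, or in mESC, under any alternative. For KO against WT, however, the tested members had values in only 17 of the 18 alternatives. In NPC the one without values was DESeq2, so its lack of a call says nothing about Mir30a or Mir351. The log2 difference between NPC and mESC ran from 2.20 to 3.03 for Mir30a and from 3.87 to 5.46 for Mir351. Signs that turned, all without a call, were KO against WT in NPC without a filter (Mir30a -0.05, Mir351 -0.17) and with a library left out (-0.25 to 0.94 for Mir30a, -0.52 to 0.83 for Mir351), and the Mir30a slope in NPC with library totals (0), with log2 of the repeat number (0.30) and with a library left out (-0.11 to 0.09). The cause was not tested.

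Deviations of same-numbered libraries correlated by -0.001 to 0.502 in mESC and -0.079 to 0.392 in NPC, with 10 and 4 of the 15 pairs over 0.1. In mESC the 10 pairs without Q20 all correlated by at least 0.398, a hint from the data of a shared replicate effect outside Q20. Depth was split likewise. Outside Q20, mESC totals were 2134729 to 2360434 counts in replicate 1 and 642384 to 1149003 in replicate 2. Both Q20 mESC libraries lay between, at 1795879 and 1901042 counts. The part of depth in these correlations was not tested. Since not every pair passed 0.1 and the labels tie the numbers to no batch, they were not treated as pairing. With the number as a replicate block, 2 members were still called between NPC and mESC and 2 among the NPC lines. Over all genes, the block moved calls from 1 to 29 among the mESC lines, from 26 to 9 for the NPC slope and from 0 to 3 for the mESC slope.

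Counts over all genes moved more than those of members. Between NPC and mESC they went from 533 to 2458 without a filter and 228 in wild type alone. Among the NPC lines they went from 164 to 88 without Q20, and to between 97 and 224 with a library left out. For KO in NPC they went from 6 to 10 with DESeq2 size factors, 1 with library totals, 0 without a filter or in the 4 libraries alone, 24 with DESeq2, and 0 to 21 with a library left out. For the NPC slope they went from 26 to 50 without a filter, 11 with DESeq2, 15 without Q20 and 6 to 26 with a library left out. Among the mESC lines they went from 1 to 3 with library totals, 6 without a filter, 7 with DESeq2 and 0 without Q20, and for the mESC slope from 0 to 2 without a filter and 1 with log2 of the repeat number. Between NPC and mESC, 7 of the 9 members fell under the filter on low counts, among them Mir30c-2 and Mir30d, which were at 0 throughout.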
